A study of Saccharomyces cerevisiae with 16 samples.

Results

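Yeast takes up iron bound to siderophores, the small iron chelators that other microbes secrete, through 7 genes that were followed here: the mannoprotein genes FIT1 (YDR534C), FIT2 (YOR382W) and FIT3 (YOR383C) and the transporter genes ARN1 (YHL040C), ARN2 (YHL047C), SIT1 (YEL065W) and ENB1 (YOL158C). They were picked by systematic name, a rule that uses no measured value although earlier results of these data were known, and are 7 of the 6844 features listed in every library. RNA of Saccharomyces cerevisiae was sequenced from 16 libraries, 4 for each strain: atg18∆, fab1∆ and vph1∆ cells, each with its gene replaced by NatMX, and wild-type cells. All strains descend from DHY211, and all of them, wild-type included, carried SAL1+ and HAP1+ as well as CAT5(91M), MIP1(661T) and MKT1(30G), and besides these RME1(INS-308A) and TAO3(1493Q). Cells grew at room temperature in SDC, a synthetic complete medium with amino acids and dextrose, to an OD600 of 0.05, with duplicate cultures of a strain on each of 2 days. Libraries carry the numbers 1 to 4 within a strain, and nothing ties a number to a day. Values are TPM, a share of all transcripts corrected for transcript length, so levels can be compared between genes; read depth is unknown. The comparison asks whether strains that differ in vacuolar lipid signalling or acidification differ in this route of iron uptake.

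S. cerevisiae makes no siderophores but uses those of its neighbours. The FIT proteins are mannoproteins anchored in the cell wall, where they hold siderophore-bound iron close to the cell, and the transporters carry the iron-loaded chelator across the membrane: Arn1 takes ferrichromes, Arn2 triacetylfusarinine C, Sit1 ferrioxamines and Enb1 enterobactin. In low iron the activators Aft1 and Aft2 switch these genes on together with the reductive system of Fet3 and Ftr1, and the vacuole, whose lumen the v-ATPase acidifies, is a store of iron. Vph1 is the subunit of that pump found at the vacuole, Fab1 is the kinase that makes the lipid PtdIns(3,5)P2, and Atg18 is a negative regulator of the Fab1 complex.

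The 7 genes share a promoter word that their selection did not use. The Aft1 core TGCACCC was searched on both strands in the 600 bases before each coding sequence of the R64 genome, the sacCer3 build. Matches were found 4 times before FIT2, 2 times each before FIT1, FIT3 and ENB1, and 1 time each before ARN1, ARN2 and SIT1. Among the 5999 promoters of this length, 161, or 2.68%, held at least 1 match and 13, or 0.217%, held 2 or more. The distances differed: the match nearest to the gene began 131 bases before the start in FIT2, 137 in ENB1, 182 in FIT1, 184 in FIT3, 188 in SIT1, 260 in ARN1 and 447 in ARN2, so that a window of 250 bases before to 50 bases after the start, in which 1.30% of 6001 promoters had a match, held none for ARN1 and ARN2. The shorter word GCACCC, which lies within the longer one, occurred in 9.30% of the promoters of 600 bases. A match is a string of letters and was not tested as a binding site.

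**Figure D1:**
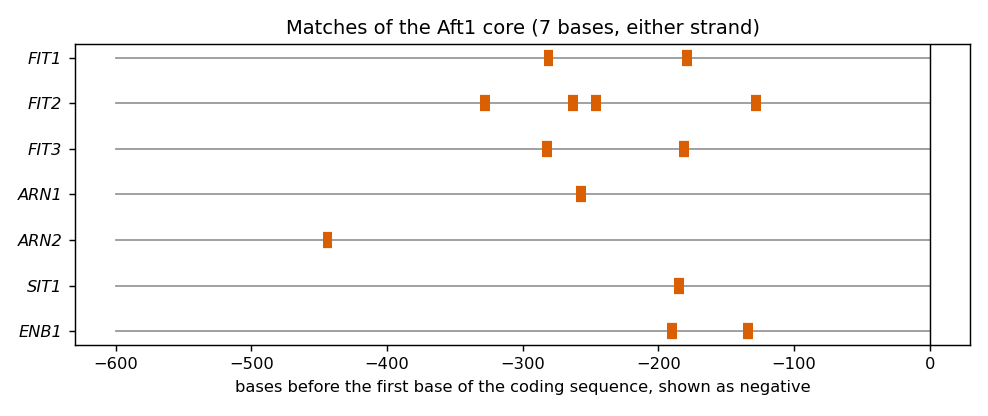
Positions of the 7-base Aft1 core on either strand in the 600 bases before each of the 7 genes; the x axis gives bases before the start of the coding sequence, and each block is 1 match. FIT2 has 4 matches, FIT1, FIT3 and ENB1 have 2 each, and the match of ARN2 lies farthest out, at 447 bases.

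The stretches that hold these matches are shown because they set the 7 genes side by side, from 20 bases before the outermost match to 20 bases after the innermost one. They are read 5′ to 3′ on the strand of the gene, and the capitals mark TGCACCC or its reverse complement GGGTGCA. They lie at chrIV:1505056-1505204 (minus strand, FIT1), chrXV:1059180-1059426 (plus strand, FIT2), chrXV:1061213-1061360 (minus strand, FIT3), chrVIII:21205-21251 (minus strand, ARN1), chrVIII:10634-10680 (minus strand, ARN2), chrV:27449-27495 (plus strand, SIT1) and chrXV:21422-21524 (minus strand, ENB1) of R64.
FIT1: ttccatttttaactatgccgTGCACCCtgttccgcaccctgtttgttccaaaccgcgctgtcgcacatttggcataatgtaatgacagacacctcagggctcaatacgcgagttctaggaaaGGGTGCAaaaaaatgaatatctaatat
FIT2: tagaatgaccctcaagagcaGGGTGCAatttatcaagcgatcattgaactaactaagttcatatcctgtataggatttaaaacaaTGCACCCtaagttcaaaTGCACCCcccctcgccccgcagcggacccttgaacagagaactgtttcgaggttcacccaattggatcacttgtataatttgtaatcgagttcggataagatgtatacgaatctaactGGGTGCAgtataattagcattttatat
FIT3: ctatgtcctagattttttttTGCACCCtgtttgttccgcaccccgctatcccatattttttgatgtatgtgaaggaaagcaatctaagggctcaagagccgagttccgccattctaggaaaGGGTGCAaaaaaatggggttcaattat
ARN1: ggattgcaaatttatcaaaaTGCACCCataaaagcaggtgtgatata
ARN2: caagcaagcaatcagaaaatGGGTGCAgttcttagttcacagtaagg
SIT1: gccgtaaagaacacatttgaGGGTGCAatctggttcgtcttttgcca
ENB1: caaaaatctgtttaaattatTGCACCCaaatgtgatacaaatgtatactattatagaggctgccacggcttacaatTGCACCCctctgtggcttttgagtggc
FIT1 and FIT3 shared an identical run of 25 bases that includes the core nearest to the gene. In the other pairs of promoters the longest shared run was 8 to 11 bases.

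All 7 genes lie near a chromosome end. The coding sequences are at chromosome IV 1503314 to 1504900 (FIT1), chromosome XV 1059531 to 1059992 (FIT2), chromosome XV 1060441 to 1061055 (FIT3), chromosome VIII 19088 to 20971 (ARN1), chromosome VIII 8351 to 10213 (ARN2), chromosome V 27657 to 29543 (SIT1) and chromosome XV 19491 to 21311 (ENB1). Their distance to the end was 8.35 kb for ARN2, 19.1 kb for ARN1, 19.5 kb for ENB1, 27.0 kb for FIT1, 27.7 kb for SIT1, 30.2 kb for FIT3 and 31.3 kb for FIT2, whereas 455 of 6002 protein-coding genes, or 7.58%, lie within 35 kb of an end. FIT2 and FIT3 are neighbours, tail to tail, with 448 bases between them, and FIT3 faces away from FRE5, a ferric reductase relative, across 508 bases. None of the 31-base words of the 7 coding sequences occurs on the coding strand of another protein-coding gene, so no near-identical copy was found among these. Opposite strands and other features were not searched.

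One library, wild-type replicate 3, was unlike the rest. There the top 10 features held 31.2% of TPM, against 14.4% to 15.9% in the other libraries, and the median TPM of the 6404 genes tested was 8.09 there, against 15.2 to 17.7. Each of the 7 genes was at its lowest in that library, so the calls against wild-type are given with and without it. The study left out 1 wild-type sample for RNA quality without naming it in the text. The deleted genes behaved as labelled for ATG18, at 0 to 0.0106 TPM in atg18∆ against 3.27 to 10.5 in wild-type, and for VPH1, at 0 to 0.191 TPM in vph1∆ against 42.3 to 113 in wild-type. FAB1 was lower but not at 0, with 1.28 to 1.58 TPM in the libraries labelled fab1∆ against 1.77 to 3.55 in wild-type.

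In wild-type cells FIT1 was the least abundant of the 7 genes in every library. Without replicate 3, SIT1 averaged 19.3 ± 3.16 TPM, FIT3 15.5 ± 0.324, FIT2 13.8 ± 2.28, ENB1 13.0 ± 0.878, ARN1 10.2 ± 0.172, ARN2 6.10 ± 0.274 and FIT1 1.83 ± 0.148 TPM (SD, n = 3 each). SIT1 and FIT3, FIT3 and FIT2, and FIT2 and ENB1 overlapped between libraries and cannot be ordered, whereas ENB1, ARN1, ARN2 and FIT1 did not overlap. All 7 genes passed the filter of a mean of at least 1 TPM over the 16 libraries.

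Cells lacking Vph1 had more RNA of FIT2 and of the transporters ARN1, ARN2 and ENB1 than wild-type cells, mostly in 2 of the 4 vph1∆ libraries, while FIT3, SIT1 and FIT1 did not pass the test. Summed over the 7 genes, vph1∆ replicates 1 and 2 held 348 and 403 TPM and vph1∆ replicates 3 and 4 held 98.4 and 91.6 TPM, against 83.7, 82.8, 27.9 and 72.9 TPM in wild-type replicates 1 to 4. The mannoprotein FIT2 moved farthest, at 10.5 times the wild-type level in replicates 1 and 2. FIT1 was at 1.08 times that level.

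**Figure D2:**
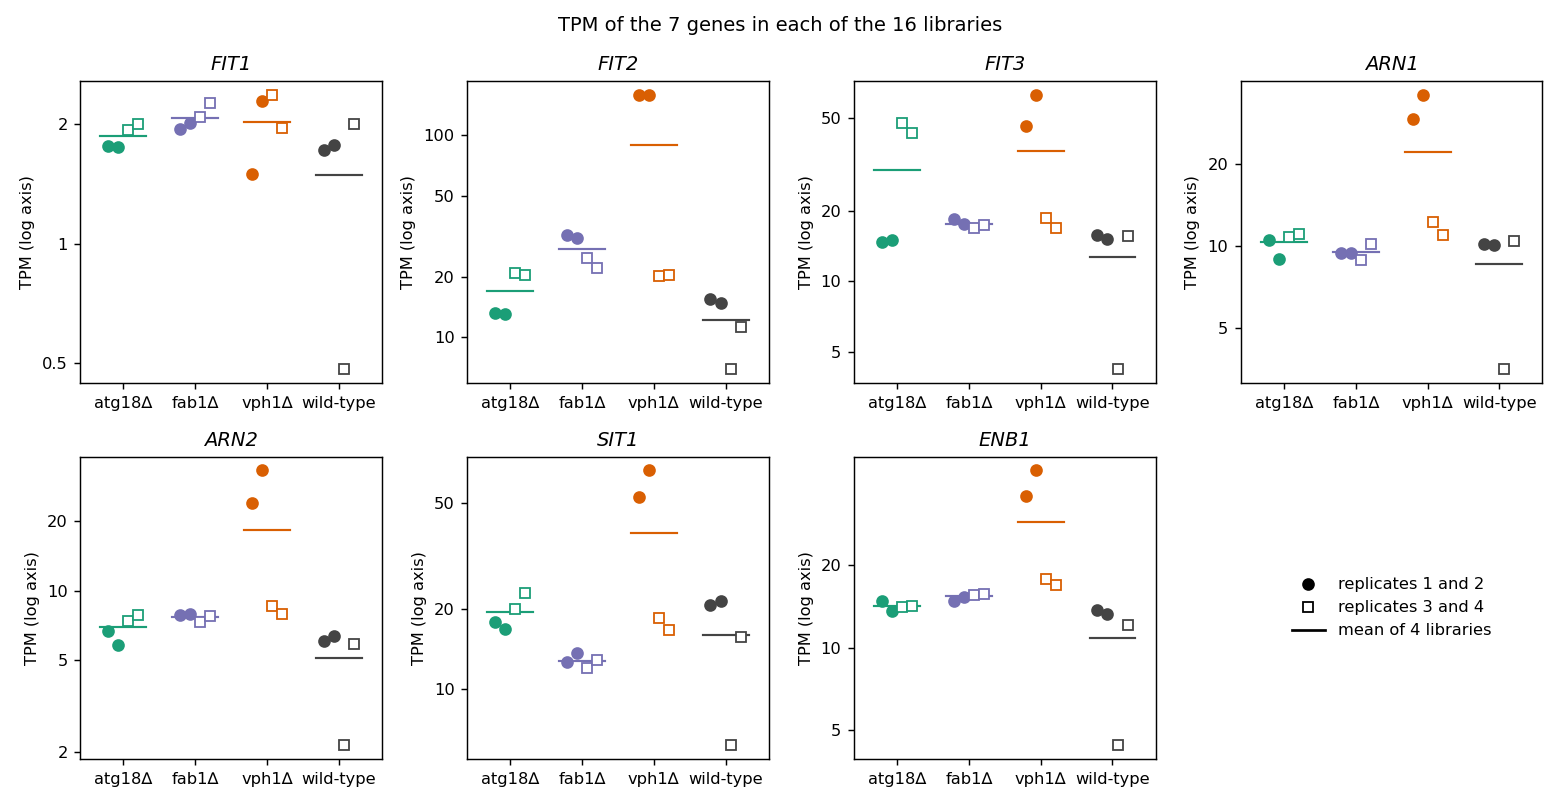
TPM of each of the 7 genes, on a log axis, in the 4 libraries of each strain; filled circles are replicates 1 and 2, open squares replicates 3 and 4, and lines the mean of 4 libraries. In vph1∆ the circles of FIT2, FIT3, ARN1, ARN2, SIT1 and ENB1 stand above every wild-type library, and wild-type replicate 3 is the lowest library for each gene.

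FIT2 had 159, 159, 20.2 and 20.3 TPM in vph1∆ replicates 1 to 4, against 15.5, 14.8, 6.93 and 11.2 TPM in wild-type replicates 1 to 4. Every vph1∆ library was above every wild-type library, and the first pair of vph1∆ libraries was far above the second. FIT2 rose by 2.21 on the log2 scale of TPM + 1 (SE 0.55, 95% interval 1.05 to 3.37, limma adjusted p = 0.0297 over all genes). This fit shares a common spread over the strains, while the SD of FIT2 was 80.0 TPM in vph1∆ and 3.93 TPM in wild-type. It also takes the libraries of a strain as independent, although some share a day. In a limma fit of vph1∆ and wild-type alone the adjusted p of FIT2 was 0.292.

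FIT3, the neighbour of FIT2, had 46.3, 62.7, 18.7 and 16.9 TPM in vph1∆ replicates 1 to 4, against 15.7, 15.1, 4.20 and 15.6 TPM in wild-type replicates 1 to 4. The groups did not overlap, yet vph1∆ replicates 3 and 4 were close to wild-type replicates 1, 2 and 4. Its log2 fold change of 1.38 (SE 0.47) did not pass the test, with a limma adjusted p of 0.107.

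The transporters followed the same split. ARN1 had 29.2, 35.9, 12.3 and 11 TPM in vph1∆ replicates 1 to 4, against 10.2, 10.1, 3.53 and 10.4 TPM in wild-type. ARN2 had 24.0, 33.1, 8.60 and 7.90 TPM in vph1∆, against 6.06, 6.40, 2.15 and 5.85 TPM in wild-type. For both genes all vph1∆ libraries were above all wild-type libraries, replicates 3 and 4 by a small margin.

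SIT1 had 52.6, 66.0, 18.5 and 16.7 TPM in vph1∆ replicates 1 to 4, against 20.8, 21.4, 6.18 and 15.7 TPM in wild-type. ENB1 had 35.5, 44.1, 17.8 and 16.8 TPM in vph1∆, against 13.7, 13.2, 4.41 and 12 TPM in wild-type. SIT1 overlapped between the strains, since vph1∆ replicates 3 and 4 fell below wild-type replicates 1 and 2, and ENB1 did not.

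By limma, ARN1 rose by 1.2 (SE 0.33, adjusted p = 0.0477), ARN2 by 1.5 (SE 0.36, adjusted p = 0.0242) and ENB1 by 1.30 (SE 0.30, adjusted p = 0.0217) on the log2 scale, and SIT1 at 1.10 (SE 0.39, adjusted p = 0.123) did not pass. FIT1 had 1.5, 2.29, 2.38 and 1.96 TPM in vph1∆ replicates 1 to 4, against 1.72, 1.77, 0.481 and 2.00 TPM in wild-type, and its log2 fold change was 0.32 (SE 0.17, adjusted p = 0.243). The strains overlapped in FIT1, at 0.481 to 2.38 TPM, where a pseudocount understates changes. Any part of its 2 promoter matches in these values was not tested.

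In all, 4 of the 7 genes rose in vph1∆ (FIT2, ARN1, ARN2 and ENB1) and none fell, where 312 of 6404 genes, or 4.87%, passed in either direction. Their median log2 fold change was 1.30, against 0.27 over all genes tested. In 5 of the 7 genes all vph1∆ libraries were above all wild-type libraries, which held for 15.1% of all genes. Without wild-type replicate 3, FIT2, ARN2 and ENB1 were called and ARN1 was not (log2 fold change 0.87, adjusted p = 0.0619), beside 14.7% of all genes, and the medians were 0.96 for the 7 genes and 0.06 for all genes. With each library scaled to a common median, the same 3 genes were called beside 8.67% of all genes, and the median over all genes moved to -0.02, that of the 7 genes to 1.01. In limma fits without vph1∆ replicate 1, without vph1∆ replicate 2, or of vph1∆ and wild-type alone, 0 of the 7 genes were called, beside 3.06%, 1.78% and 0.314% of all genes. At an unadjusted p under 0.05 these fits held 7, 5 and 6 of the 7 genes, beside 22.2%, 14.1% and 9.24% of all genes.

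**Figure D3:**
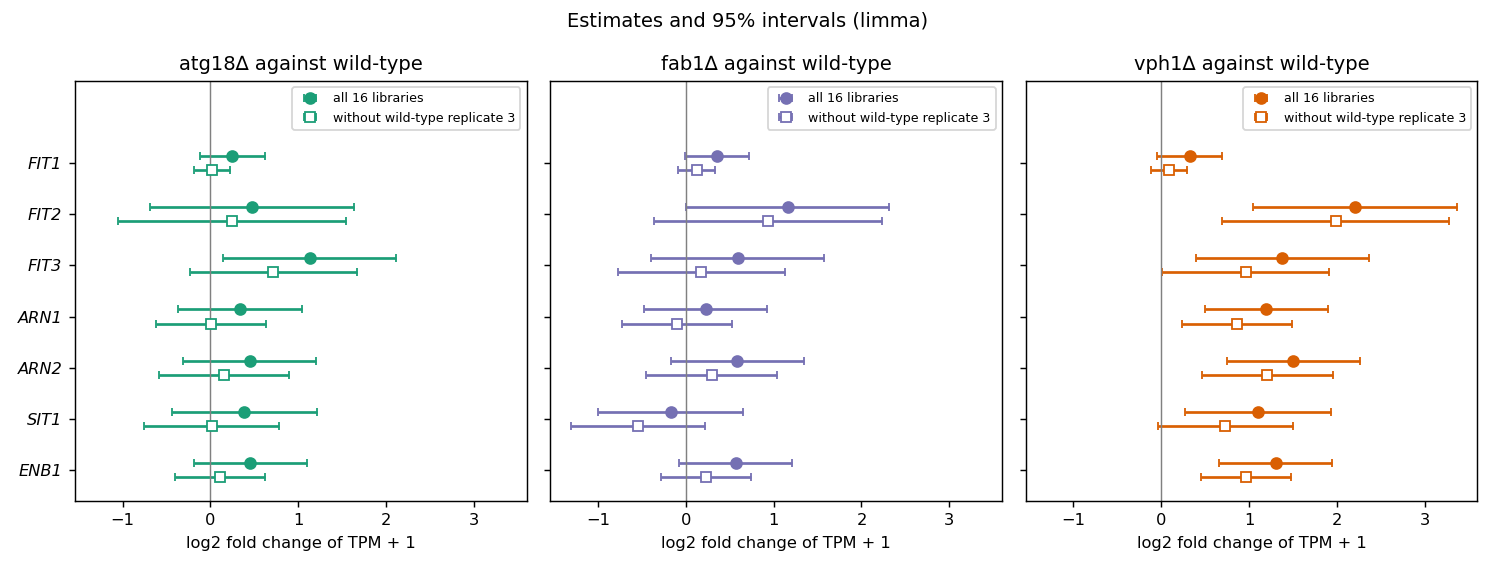
Log2 fold change of TPM + 1 of the 7 genes in atg18∆, fab1∆ and vph1∆ against wild-type with 95% intervals from limma; circles use all 16 libraries and squares leave out wild-type replicate 3. FIT2 in vph1∆ lies highest, at 2.21, and every estimate lies lower without wild-type replicate 3.

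The genes that differed most between the vph1∆ libraries included iron and phosphate genes. The numbers were set apart after these libraries were seen to differ in the 7 genes, so the ranks below are a description. Between replicates 1 and 2 and replicates 3 and 4 of vph1∆, 18 of 6404 genes were higher by more than 1 on the log2 scale in replicates 1 and 2, and 6 of these 18 were genes of siderophore iron. FIT2, at 2.91, had the highest difference of all genes, SIT1 (1.69) was at rank 5, ARN2 (1.66) at rank 7, FIT3 (1.55) at rank 10, ARN1 (1.41) at rank 12 and ENB1 (1.15) at rank 17, while FIT1 at -0.14 was not among them. Another 4 of the 18 were iron genes, TIS11 (CTH2, which degrades mRNAs of iron-using proteins in low iron), FTR1, FET3 and the surface reductase FRE1, and 6 were phosphate genes, PHO89, PHO5, PHO84, SPL2, PHO11 and PHO12. Between the same numbers of atg18∆, PHO5 (2.21), PHO89 (1.54), PHO11 (1.51), PHO12 (1.29) and SPL2 (1.23) were higher by more than 1 too. PHO84 (1.003) was so between those of fab1∆. These 6 phosphate genes were also higher by more than 1 in wild-type replicates 1 and 2 than in wild-type replicate 4, where none of the 7 genes of siderophore iron was. Below that cutoff, SIT1 (0.41, rank 89) and FIT2 (0.40, rank 98) stood high there, against a median of -0.11 over all genes. ENB1 was at 0.15, ARN2 at 0.08, FIT3 at -0.02, ARN1 at -0.04 and FIT1 at -0.13. Between the same numbers of fab1∆, FIT2 was at 0.42 (rank 38) and the others at -0.09 to 0.07. The part of a culture day or batch in these values was not tested, because the labels do not tie the numbers to days.

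The ratios within the replicate numbers are given as a description, because the numbers were set apart after the vph1∆ libraries were seen to differ in these genes. Between replicates 1 and 2 of vph1∆ and of wild-type, the linear ratio was 10.5 for FIT2, 4.58 for ARN2, 3.54 for FIT3, 3.21 for ARN1, 2.95 for ENB1, 2.81 for SIT1 and 1.08 for FIT1.

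For vph1∆ replicates 3 and 4 over wild-type replicate 4, the ratio was 1.80 for FIT2, 1.44 for ENB1, 1.41 for ARN2, 1.14 for FIT3, 1.12 for SIT1, 1.11 for ARN1 and 1.08 for FIT1. FIT2 thus had the highest ratio of the 7 genes in both sets, and each ratio but that of FIT1 was lower in replicates 3 and 4.

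**Figure D4:**
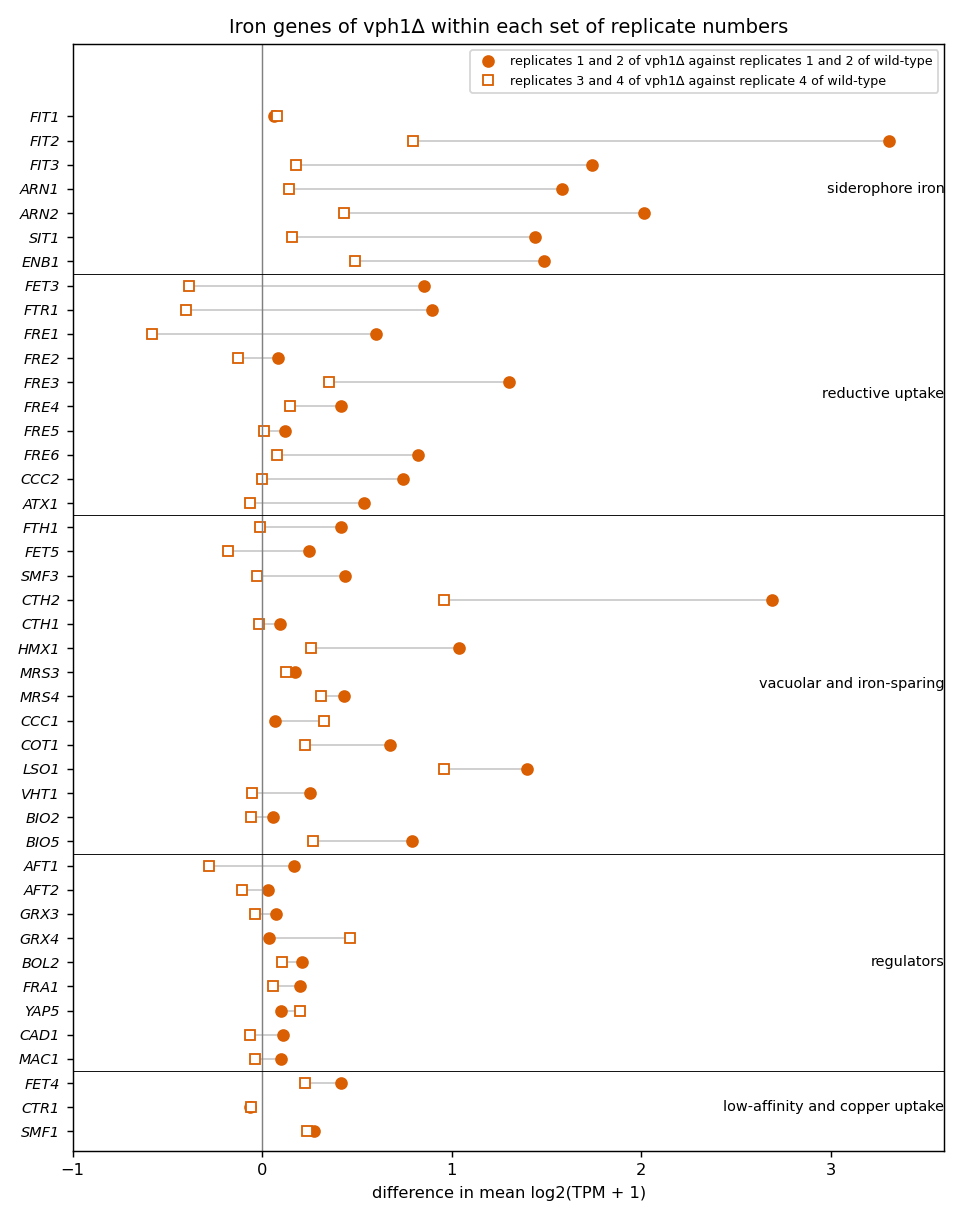
Difference in mean log2(TPM + 1) between vph1∆ and wild-type for the 7 siderophore iron genes and 36 other iron genes in 4 lists; circles compare replicates 1 and 2 of each strain, squares vph1∆ replicates 3 and 4 with wild-type replicate 4. FIT2 lies at 3.31 and 0.79, and FIT1 at 0.06 and 0.08.

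Nearness to a chromosome end was set beside these values. The 373 other tested genes within 35 kb of a chromosome end had a median log2 difference of 0.15 between vph1∆ and wild-type in replicates 1 and 2, and 7 of them were above 1. The median was 1.58 for the 7 genes and 0.10 over all genes tested. FRE5, which shares its upstream gap with FIT3, had 4.16 and 5.61 TPM in vph1∆ replicates 1 and 2, against 4.29 and 4.44 TPM in wild-type replicates 1 and 2.

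In fab1∆ cells FIT2 had the highest estimate of the 7 genes, and no gene passed the test with all 16 libraries. FIT2 had 32.2, 31, 24.7 and 22.1 TPM in fab1∆ replicates 1 to 4, above each wild-type library (15.5, 14.8, 6.93 and 11.2 TPM). The ratio was 2.09 within replicates 1 and 2, and 2.08 for fab1∆ replicates 3 and 4 over wild-type replicate 4. In the fit of all 16 libraries its log2 fold change of 1.16 (SE 0.55, unadjusted p = 0.0500, adjusted p = 0.137 by limma) did not pass, whereas in a limma fit of fab1∆ and wild-type alone, which leaves out the spread of FIT2 among the vph1∆ libraries, it rose (adjusted p = 0.0179).

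SIT1 had the only negative estimate in fab1∆. It had 12.7, 13.7, 12 and 12.9 TPM in fab1∆ replicates 1 to 4, below wild-type replicates 1, 2 and 4 (20.8, 21.4 and 15.7 TPM) and above replicate 3 (6.18 TPM). Its log2 fold change was -0.17 (SE 0.39, limma adjusted p = 0.792) with all libraries and -0.54 (SE 0.36, adjusted p = 0.241) without wild-type replicate 3, and neither passed.

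By limma, 0 of the 7 genes were called in fab1∆, beside 23.5% of all genes. At an unadjusted p under 0.05 there was 1 of the 7, beside 2328 of 6404 genes. Without wild-type replicate 3, 0 of the 7 were called, beside 42.4% of all genes, and 0 had an unadjusted p under 0.05, beside 3182 of 6400 genes. FIT3, ARN2 and ENB1 were, like FIT2, higher in every fab1∆ library than in every wild-type library, 4 of 7 genes beside 32.6% of all genes, but by little: ENB1 had 14.8 to 15.7 TPM in fab1∆ against 4.41 to 13.7 TPM in wild-type. FIT1, with 1.95 to 2.26 TPM in fab1∆ against 0.481 to 2.00 TPM in wild-type, and ARN1, with 8.92 to 10.2 TPM against 3.53 to 10.4 TPM, overlapped.

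In atg18∆ cells no gene passed the test, the transporters overlapped with wild-type, and FIT3 differed between the libraries. FIT3 had 14.8, 15.0, 47.3 and 43.2 TPM in atg18∆ replicates 1 to 4, against 15.7, 15.1, 4.20 and 15.6 TPM in wild-type. Here replicates 3 and 4 were the high ones, the reverse of vph1∆. The log2 fold change of FIT3 was 1.13 (SE 0.47, unadjusted p = 0.0268, adjusted p = 0.294 by limma).

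FIT2 had 13.3, 13.0, 20.7 and 20.5 TPM in atg18∆ replicates 1 to 4, so the higher FIT3 of replicates 3 and 4 went with a smaller difference in its neighbour. Between replicates 1 and 2 and replicates 3 and 4 of atg18∆, FIT3 differed by -1.54 on the log2 scale and FIT2 by -0.61, against a median of -0.11 over all genes. FIT3 was among 22 genes below -1, and the others included HSP26 (-3.90), HSP30 (-2.79), SPI1 (-1.76), DDR2 (-1.48), HSP12 (-1.11) and SSA4 (-1.16), genes known for their response to heat and other stress. None of the other 6 genes of siderophore iron was below -1 there, and the part of culture conditions was not tested.

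By limma, 0 of the 7 genes were called in atg18∆, beside 0.0468% of all genes, and without wild-type replicate 3 also 0, beside 0.0936%. At an unadjusted p under 0.05 there was 1 of the 7, beside 405 of 6404 genes, and without that library 0, beside 381 of 6400 genes. No gene of the 7 was above wild-type in every library, beside 4.89% of all genes. For atg18∆ replicates 3 and 4 over wild-type replicate 4, the ratio was 2.89 for FIT3 and 1.83 for FIT2, and within replicates 1 and 2 it was 0.965 for FIT3 and 0.867 for FIT2. ARN1 had 8.95 to 11.1 TPM in atg18∆, against 3.53 to 10.4 TPM in wild-type, and ENB1 had 13.6 to 14.7 TPM, against 4.41 to 13.7 TPM.

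**Figure D5:**
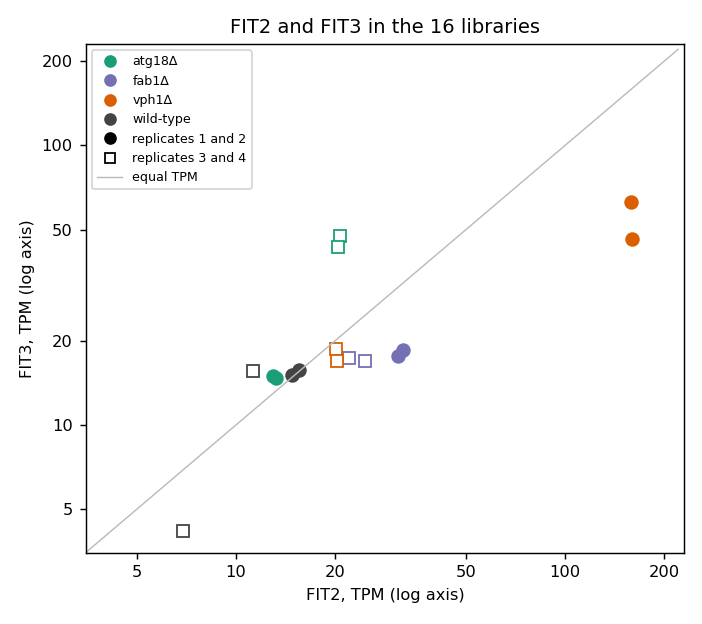
FIT3 against FIT2 in TPM, both on log axes, in the 16 libraries; colours are strains, filled circles replicates 1 and 2, open squares replicates 3 and 4, and the line marks equal TPM. The vph1∆ circles lie far to the right with FIT2 at 159 TPM, and the atg18∆ squares lie above the line with FIT3 at 43.2 and 47.3 TPM.

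The ratio of the neighbours FIT2 and FIT3 was also read in each library. FIT2 over FIT3 was 0.899, 0.867, 0.438 and 0.474 in atg18∆ replicates 1 to 4, 1.74, 1.76, 1.46 and 1.27 in fab1∆, 3.43, 2.53, 1.08 and 1.2 in vph1∆, and 0.988, 0.977, 1.65 and 0.719 in wild-type. The atg18∆ ratios were all below the fab1∆ and vph1∆ ratios. In wild-type only replicate 3, the library set apart above, reached fab1∆ values. Wild-type replicates 1, 2 and 4 were below every fab1∆ and vph1∆ library. ARN1 over ARN2 was 1.41 to 1.58 in atg18∆, 1.19 to 1.31 in fab1∆, 1.08 to 1.43 in vph1∆ and 1.58 to 1.78 in wild-type. SIT1 over ENB1 was 1.21 to 1.63 in atg18∆, 0.772 to 0.891 in fab1∆, 1.48, 1.5, 1.04 and 0.993 in vph1∆ replicates 1 to 4, and 1.30 to 1.62 in wild-type.

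Comparisons between mutants do not use wild-type values except for the shared spread. By limma, 0 of the 7 genes differed between vph1∆ and fab1∆, beside 6.29% of all genes, with a median log2 difference of 0.92 against -0.0049 over all genes. At an unadjusted p under 0.05 there were 4 of the 7, beside 1134 of 6404 genes. Without wild-type replicate 3, ARN1 (0.97, adjusted p = 0.0108), ARN2 (0.92, 0.0338), SIT1 (1.27, 0.00708) and ENB1 (0.74, 0.0164) were higher in vph1∆, beside 41.1% of all genes. In these 4 genes each vph1∆ library was above each fab1∆ library, as in 13.4% of all genes.

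Between vph1∆ and atg18∆, 0 of 7 were called by limma, beside 0.671% of all genes, with 4 at an unadjusted p under 0.05, beside 418 of 6404 genes. Without wild-type replicate 3, ARN2 (1.06, adjusted p = 0.0452) and ENB1 (0.85, 0.0204) were higher in vph1∆, beside 12.1% of all genes, while FIT2 at 1.74 had an adjusted p of 0.0588. Between fab1∆ and atg18∆, 0 of 7 were called by limma with or without that library, beside 10.9% and 47.8% of all genes. Either way 0 of the 7 had an unadjusted p under 0.05, beside 1417 of 6404 and 3595 of 6400 genes. FIT2 and ENB1 were higher in every fab1∆ library than in every atg18∆ library, as were 30.0% of all genes. SIT1 was lower in every library, as were 16.9% of all genes, with 12 to 13.7 TPM in fab1∆ against 16.8 to 23.0 TPM in atg18∆.

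Across the 15 libraries without wild-type replicate 3, 6 of the 7 genes varied together, FIT1 apart. With that library kept, Pearson's r of FIT1 with the other genes was 0.33 to 0.62. FIT1 was low, at 1.5 to 2.38 TPM outside that library, where a pseudocount understates changes. Over the 15 libraries without wild-type replicate 3, Pearson's r of log2(TPM + 1) was 0.99 between ARN2 and ENB1, 0.97 between ARN1 and ARN2, 0.96 between FIT2 and ARN2, 0.73 between FIT2 and FIT3, and between -0.19 and 0.07 for FIT1 with each of the other genes. These points share strains and replicate numbers, and vph1∆ replicates 1 and 2 held the 2 highest values of FIT2, ARN1, ARN2, SIT1 and ENB1.

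The genes whose pattern was most like the mean of the 7, over all 16 libraries, were FRE3 (r = 0.96), VMR1 (0.95), CCC2 (0.95), FRE6 (0.93) and COT1 (0.93). The 15 genes most alike over all 16 libraries were also read without wild-type replicate 3. Among these 15 the order was then FRE6 (0.96), FRE3 (0.95), COT1 (0.94), CCC2 (0.93), the uncharacterized YHL046W-A (0.93) and VMR1 (0.92). Genes outside the 15 were not ranked without that library. FRE3 is a reductase of siderophore iron, CCC2 loads copper into Fet3, FRE6 is a vacuolar reductase, and VMR1 and COT1 are transporters of the vacuolar membrane. FRE3 had 4.94, 5.98, 2.89 and 2.30 TPM in vph1∆ replicates 1 to 4, against 1.63, 1.60, 0.746 and 1.81 TPM in wild-type. Within vph1∆ its libraries stood in the same order as those of ARN2, at a lower level.

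Among 36 other iron genes, 4 were called in vph1∆ with all libraries, beside 4.87% of all genes, 7 with median scaling, beside 8.67%, and 10 without wild-type replicate 3, beside 14.7%, and each of those was higher in vph1∆. With all libraries FRE3 (1.00, limma adjusted p = 0.00893), CTH2 (1.88, 0.0243), LSO1 (1.22, 0.000719), a small protein known to rise in low iron, and BIO5 (0.70, 0.0296), a transporter for biotin synthesis, rose. By list these were 1 of 10 genes of reductive uptake, 3 of 14 vacuolar and iron-sparing genes, 0 of 9 regulators and 0 of 3 genes of low-affinity and copper uptake. At an unadjusted limma p under 0.05 the same lists held 4, 10, 2 and 2 genes, beside 23.2% of all genes. LSO1 was at 0.11 to 0.55 TPM in wild-type and 0.32 to 0.70 TPM in atg18∆. It passed the filter of a mean of 1 TPM only through fab1∆ and vph1∆, so its calls in these strains are no support.

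CTH2 showed the split of FIT2, with 23.8, 24.5, 3.65 and 3.91 TPM in vph1∆ replicates 1 to 4, against 2.63, 3.18, 1.10 and 1.45 TPM in wild-type. In the reductive system, FET3, the multicopper ferroxidase, had 186, 207, 77.7 and 72.7 TPM in vph1∆, against 109, 108, 33.2 and 98.5 TPM in wild-type, and was not called (0.62, limma adjusted p = 0.254). In vph1∆ replicates 3 and 4, FET3 was thus below wild-type replicate 4, while FIT2 was above it. AFT1, which encodes the activator, had 9.92, 12.4, 9.96 and 7.93 TPM in vph1∆, against 9.69, 9.81, 3.49 and 11 TPM in wild-type, and was not called (adjusted p = 0.340).

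In fab1∆, HMX1 (0.98, limma adjusted p = 0.0184), the heme oxygenase, LSO1 (1.25, 8.17e-05) and SMF1 (0.59, 0.0104), a manganese transporter, rose, 3 of 36 beside 23.5% of all genes. The limit on LSO1 given above, that it passed the filter only through fab1∆ and vph1∆, holds here too. Without wild-type replicate 3, 8 of 36 were called, beside 42.4% of all genes, 7 of them higher in fab1∆ and 1, the biotin transporter gene VHT1, lower (-0.40, limma adjusted p = 0.0479). FET3 had 62.6 to 68.7 TPM in fab1∆, below wild-type replicates 1, 2 and 4 (98.5 to 109 TPM) and above replicate 3 (33.2 TPM), and was not called (-0.25, adjusted p = 0.652). In atg18∆, 0 of 36 were called by limma, beside 0.0468% of all genes, and also 0 without wild-type replicate 3, beside 0.0936%. At an unadjusted p under 0.05 there were 2 of 36, beside 405 of 6404 genes, and without that library 3 of 36, beside 381 of 6400 genes.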

How the data were processed

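RNA was sequenced from 4 libraries of each of 4 yeast strains. The authors deposited TPM, length-corrected transcript shares, from Salmon, version 0.8.1 in the submitters' processing notes, on the sacCer3 transcriptome; values sum to 1000000 per library, so read depth is unknown and no counting interval can be given. The labels name polyA RNA, while the protocol describes libraries made without polyA selection. All 16 libraries entered 1 model of strain means on log2(TPM + 1) with limma 3.58.1 in R 4.3.3, over the 6404 of 6844 features with a mean of at least 1 TPM, with a trend of the variance on expression, two-sided tests and Benjamini-Hochberg adjustment over all of them at 0.05. A pseudocount understates changes of low genes. Replicates are separate cultures, of which some share a day. All 7 genes are named, with members of 4 lists of iron genes that passed the test or carry a comparison; symbols matched 6011 features. The genes and lists were chosen with earlier results of these data known. HSP26, HSP30, SPI1, DDR2, HSP12, SSA4, the phosphate genes and FRE5 were named after their values were seen. Alternatives were pseudocounts of 0.1 and 5, no filter and a filter of 10 TPM, median scaling, quantile normalization, fits of each pair of strains, no trend, a replicate block and each library left out; fits within replicates 1 and 2 or 3 and 4 were added after seeing the data. Promoters and coordinates come from the R64 genome.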

Additional observations from a re-analysis of the deposited data

Results flagged for a closer look

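Within a strain, 3 of 28 gene and strain groups had a library far from the other 3, and chance gives about 1 in 20. All were wild-type replicate 3. FIT3 was at 4.20 TPM there, with the other wild-type libraries at 15.1 to 15.7 TPM. ARN1 was at 3.53 TPM, with the others at 10.1 to 10.4 TPM. ARN2 was at 2.15 TPM, with the others at 5.85 to 6.40 TPM.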

How the results depend on the processing

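The sets of replicates 1 and 2 and of 3 and 4 were formed after the vph1∆ libraries were seen to differ, so their counts are no independent test. Counts are given for atg18∆, fab1∆ and vph1∆ against wild-type, then vph1∆ against fab1∆, vph1∆ against atg18∆ and fab1∆ against atg18∆. All genes called were 1, 912, 165, 191, 13 and 382 with a filter of 10 TPM, 5, 2324, 555, 1931, 328 and 2492 with median scaling, 7, 2496, 553, 2240, 318 and 2818 with quantile normalization, 8, 3199, 846, 3076, 798 and 3546 with median scaling and without wild-type replicate 3, 1, 553, 20, 2800, 411 and 3217 in pairwise fits, 22, 2278, 879, 2077, 639 and 2103 for libraries numbered 1 and 2, and 9, 129, 7, 22, 10 and 21 for those numbered 3 and 4. Within replicates 3 and 4 without wild-type replicate 3 they were 59 and 2817 in atg18∆ and fab1∆ against wild-type, and 2453, 666 and 3482 between mutants. Leaving out 1 library at a time gave 3 to 6, 1063 to 2720, 114 to 944, 257 to 2635, 24 to 773 and 488 to 3064 genes. Of the 7 genes it called 0 to 4 in vph1∆ against wild-type, 0 to 4 in vph1∆ against fab1∆, 0 to 2 in vph1∆ against atg18∆ and 0 elsewhere.

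Within replicates 3 and 4 without wild-type replicate 3, wild-type is 1 library, so log2 fold changes of the 7 genes against it are given without calls. In vph1∆ they ran from 0.08 for FIT1 to 0.79 for FIT2, with ENB1 at 0.49 and ARN2 at 0.43. In fab1∆ they ran from -0.31 for SIT1 to 0.99 for FIT2, and in atg18∆ from -0.01 for FIT1 to 1.47 for FIT3. Of the 7 genes, vph1∆ against wild-type had 2 called with median scaling without wild-type replicate 3, beside 846 of all genes. A filter of 10 TPM also gave 2, beside 165 of all genes, but ARN2 and FIT1 were not tested there. All but FIT1 were called within replicates 1 and 2, beside 879 of all genes. The count was 0 in the pairwise fit, beside 20, and within replicates 3 and 4 with wild-type replicate 3 kept, beside 7. For fab1∆ against wild-type it was 1 in the pairwise fit, beside 553, and 2 within replicates 1 and 2, beside 2278. Between vph1∆ and fab1∆ it was 1 with a pseudocount of 5, for which the count of all genes is not given here. It was 4 with median scaling, with quantile normalization or with median scaling without wild-type replicate 3, beside 1931, 2240 and 3076 of all genes. It was 3 in the pairwise fit, beside 2800, and 6 within replicates 1 and 2, beside 2077. Between vph1∆ and atg18∆ it was 6 within replicates 1 and 2, beside 639 of all genes. It was 1 with median scaling without wild-type replicate 3, beside 798. Between fab1∆ and atg18∆ it was 2 in the pairwise fit and for libraries 1 and 2, beside 3217 and 2103 of all genes. Replicate numbers were not taken as pairs, since the labels tie them to nothing shared and r was above 0.1 in 16 of 24 same-numbered pairs, not in all. Of 48 cases, each of 1 library against the 4 of another strain, 23 correlated best with their own number. These cases reuse the same 16 libraries, and whether equal numbers share a day or batch was not tested. With a replicate block 4 of the 7 genes were called in vph1∆ against wild-type, 1 in vph1∆ against fab1∆ (SIT1, limma adjusted p = 0.0486) and 0 elsewhere. For this fit too the count of all genes is not given here.

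Log2 fold changes that turned sign were small unless a replicate set was removed. In atg18∆ against wild-type these were FIT1 (-0.024), ARN1 (-0.049) and SIT1 (-0.049) with median scaling without wild-type replicate 3, FIT1 (-0.012) within replicates 3 and 4 without it, and FIT2 (-0.19), FIT3 (-0.0475), ARN1 (-0.055) and SIT1 (-0.27) within replicates 1 and 2. In fab1∆ ARN1 was at -0.079 with median scaling, -0.10 with quantile normalization, -0.21 with both median scaling and wild-type replicate 3 left out, -0.10 without that library (up to 0.34 with another library left out), -0.10 within replicates 1 and 2 and -0.12 within replicates 3 and 4 without it, and SIT1 at 0.0044 without wild-type replicate 2 (-0.54 without wild-type replicate 3) and 0.30 within replicates 3 and 4. Between vph1∆ and fab1∆ FIT1 was at 0.056 with quantile normalization and 0.058 without vph1∆ replicate 1 (-0.087 without vph1∆ replicate 3), and FIT2 at -0.20 within replicates 3 and 4. Between vph1∆ and atg18∆ FIT1 was at -0.0255 with quantile normalization, FIT3 at -0.0135 without atg18∆ replicate 1, -0.0064 without atg18∆ replicate 2, -0.082 without vph1∆ replicate 2 (up to 0.53, without vph1∆ replicate 4) and -1.30 within replicates 3 and 4, where FIT2 was at -0.024 and SIT1 at -0.28. Between fab1∆ and atg18∆ FIT1 was at -0.0815 with quantile normalization, FIT3 at 0.26 within replicates 1 and 2 and ARN2 at -0.016 within replicates 3 and 4. The values within replicates 3 and 4 between mutants were the same with and without wild-type replicate 3. The cause was not tested.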
